A study of Homo sapiens with 6 samples.

Results

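Claudins are the proteins that build the strands of the tight junction, the seal between neighbouring epithelial cells. The 9 members described here, CLDN1, CLDN2, CLDN3, CLDN4, CLDN7, CLDN12, CLDN15, CLDN18 and CLDN23, were taken by gene symbol. They are 9 of 19775 genes with a probe set of their own on the array, and every probe set annotated to exactly 1 of them was used, 18 of 41091. Caco-2, a human colorectal adenocarcinoma line whose monolayers resemble small-intestinal enterocytes, was grown for 14 days on a porous support. The support was then set above THP-1 cells, a human monocytic leukaemia line made macrophage-like by 4 days of phorbol myristate acetate (PMA), in plates with 12 wells. Caco-2 RNA was profiled after 0, 1, 3, 6, 24 and 48 h of coculture on 1 array each, so every value has n = 1, no difference can be set against replicates, and no test was made. A series of 6 values below follows that order of times, and a series of 5 values the coculture times from 1 h on. The cells are labelled as 14 days old on every array, and none of the 6 arrays is of Caco-2 kept without THP-1 for the same hours. An effect of THP-1 thus cannot be told apart from one of time or handling. In such bulk RNA, fewer cells and less RNA per cell cannot be told apart.

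Each claudin spans the membrane several times and reaches across the gap between cells with its extracellular loops, whose charges set what passes. Barrier-forming claudins close the paracellular path. Pore-forming claudins leave channels in it for small ions and, for some, water. In the intestine, loss of the first kind and gain of CLDN2 are known from inflamed mucosa, and cytokines of macrophages are known to alter claudin genes in cultured epithelium. CLDN1, CLDN3, CLDN4, CLDN7 and CLDN18 were classed here as barrier-forming, and CLDN2 and CLDN15, which conduct small cations, as pore-forming. CLDN12 and CLDN23, whose roles are less settled, were put in neither class.

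The arrays had medians of 15.3 to 16.7 and 12017 to 12296 genes above a signal of 16.2, the median of all values, which was used as the floor under which signals are mostly noise. All 15 markers of enterocyte-like cells were above the floor on each array. At 24 h KRT20 and GPA33 were 4.04-fold and 2.46-fold higher than at 0 h and FABP1 2.01-fold lower. At 48 h LGALS4, FABP1, APOA1 and SI, 4 of the 15, were at least 2-fold lower, where 6.11% of all genes were, and KRT20 and GPA33 were 1.99-fold and 1.80-fold higher. Of 16 macrophage markers with a probe set of their own, 5 were never above the floor (PTPRC, SPI1, MRC1, C1QA and C1QB). Another 5 were above it on each array (CD14, ITGAM, LYZ, AIF1 and LAPTM5). The summed signal of these 16 was 918, 774, 561, 690, 698 and 697. Most of its course came from AIF1, which fell to 43 at 48 h, against 360 at 0 h. Without AIF1 the sum was 558, 545, 450, 536, 601 and 654, highest at 48 h, when LYZ read 412, against 247 at 0 h. FCER1G was at least 2-fold lower at 1, 3 and 6 h. The part of these markers in the results below was not tested. For ACTB, the signal of the 3'-end control divided by that of the 5'-end control, which depends on RNA integrity and labelling, was 51.2, 27.7, 22.9, 18, 27.9 and 37, highest at 0 h. For GAPDH the same ratio was 4.69, 3.81, 4.29, 3.54, 4.72 and 4.23, highest at 24 h. The part of either ratio in the results below was not tested. For the 10436 genes that exceeded the floor on every array, the median log2 ratio to 0 h lay between -0.04 at 1 h and -0.14 at 6 h.

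No claudin gene was called 2-fold higher or lower than at 0 h at any coculture time, judged by the brightest probe set of each gene. For CLDN18 at 1, 3 and 48 h the floor leaves only a bound, at least 1.59-fold lower, which does not show that 2-fold was not reached. With the floor at the 30th percentile its log2 ratios there were -1.65, -1.73 and -1, and it was called lower. All 9 genes were above the floor on at least 1 array. The count of 0 of 9 stands beside a background of 3.35%, 6.62%, 10.7%, 10.0% and 9.93% of 14760 such genes that were at least 2-fold higher or lower at the 5 coculture times. Over any of these times the background was 21.8%. With 9 members, a count of 0 lies near that background and does not set the claudins apart.

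At 1.5-fold, 4, 4, 2, 1 and 2 of the 9 differed from 0 h, against 14.6%, 23.1%, 30.3%, 29.1% and 28.6% of all genes. Higher by that much were CLDN3, CLDN4 and CLDN23 at 1 h, CLDN2, CLDN4 and CLDN23 at 3 h, CLDN4 at 6 h and CLDN15 at 24 h, with a background of 6.50%, 9.51%, 11.3%, 12.0% and 11.1%. The 3 of 9 at 1 h and at 3 h were above that background, and the later counts of 1, 1 and 0 were near or below it. The members were chosen with earlier results of these data known, so these counts are no test. Lower by that much were CLDN18 at 1, 3, 6 and 48 h and CLDN3 at 48 h, with a background of 8.09%, 13.6%, 19.1%, 17.1% and 17.5%.

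**Figure D1:**
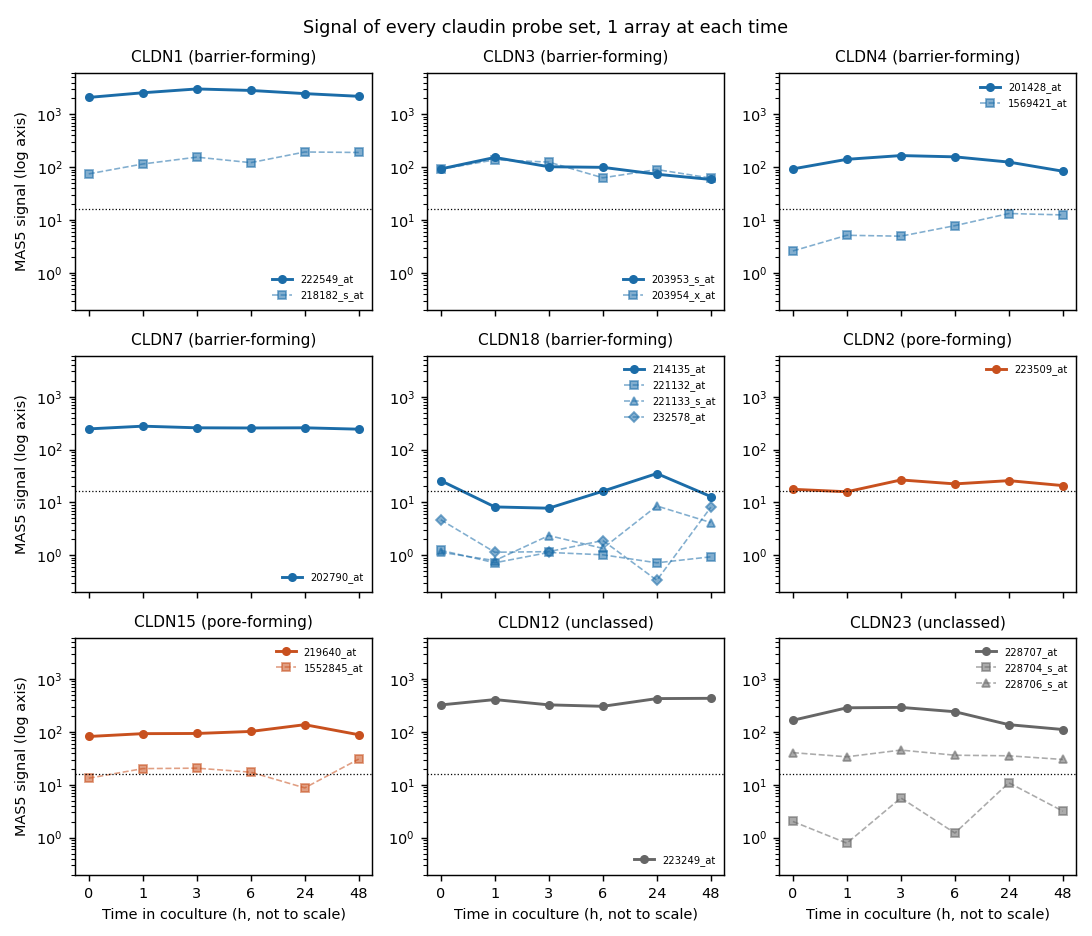
MAS5 signal (log axis) of each of the 18 claudin probe sets at 6 times of coculture, 1 array a time, with a solid line for the brightest probe set of a gene and the floor of 16.2 dotted. CLDN1, CLDN3, CLDN4, CLDN7, CLDN12, CLDN15 and CLDN23 have a probe set above the floor at each time, whereas CLDN2 and CLDN18 lie close to it.

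The precision of a single ratio was gauged from pairs of probe sets of the same gene. For signals of 16 to 32, the pairs gave a robust SD of 0.64 for a single log2 ratio at 1 h. It came to 0.41 from 64 to 128, 0.33 from 128 to 256, 0.26 from 256 to 512, and 0.16 above 1024. This value, called the spread between probe sets below, is for a single ratio and not for the difference within a pair. Ratios at later times are set beside it, although only 1 h was gauged. This spread also holds real differences between transcripts and leaves out the variation between cultures.

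Among the barrier-forming claudins, CLDN4 lowers the passage of cations. By the brightest probe sets it had the highest ratio to 0 h of the 9 genes at 3 and 6 h. With the median over probe sets CLDN1 was above CLDN4, with log2 ratios of 0.79 against 0.42 at 3 h and 0.57 against 0.38 at 6 h. The signal of the brightest CLDN4 probe set was 92.8, 141, 166, 157, 125 and 83.9. The signals at 1, 3, 6 and 24 h were thus all above that at 0 h, and the signal at 48 h was the lowest. It was 1.78-fold higher at 3 h than at 0 h, a log2 ratio of 0.84, beside a spread of 0.41 between probe sets at such signals. Of 5910 genes with a mean signal of 64 to 512, 5.08% had a log2 ratio as high or higher at 3 h. The second CLDN4 probe set stayed under the floor on all 6 arrays, with signals of 2.60 at 0 h to 13.3 at 24 h, and gives no ratio.

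CLDN3, a sealing claudin of the intestine, had its highest signal at 1 h and its lowest at 48 h in both of its probe sets. The brighter read 92.8, 153, 102, 99.4, 73.6 and 58.6. This is 1.65-fold higher at 1 h and 1.58-fold lower at 48 h than at 0 h. The other read 91.4, 138, 125, 63, 90.3 and 62.2. Both were above 0 h at 1 and 3 h and below it at 48 h. They disagreed at 6 h, with log2 ratios of 0.10 in the brighter and -0.54 in the other, which was within -0.02 of 0 h at 24 h. Between the highest and the lowest array the brighter probe set spanned 2.61-fold and the other 2.22-fold, a range of at least 2-fold that 28.8% of all genes also had.

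CLDN1, which closes the junction and without which the skin barrier of mice fails, was the member with the clearest split between probe sets. Its brighter probe set read 2092, 2561, 3026, 2834, 2469 and 2196. All 5 coculture arrays were above 0 h, most at 3 h with 1.45-fold, a log2 ratio of 0.53 beside a spread of 0.16 at such signals, and at 48 h the ratio was 1.05-fold. The dimmer probe set read 74.8, 115, 155, 122, 194 and 190, and its ratios of 2.08, 2.59 and 2.54 at 3, 24 and 48 h were past 2-fold. No other of the 13 claudin probe sets above the floor on any array passed 2-fold. These counts of 0, 1, 0, 1 and 1 of 13 stand beside 4.36%, 8.13%, 11.5%, 10.1% and 10.2% of all probe sets, and lie near that background. The probe sets both place 0 h lowest, and differ at 24 and 48 h, where their log2 ratios were 0.24 and 1.37, and 0.07 and 1.35. The 5'-end control of ACTB was also lowest at 0 h, with signals of 131, 262, 319, 401, 282 and 193, and its part in the split was not tested.

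CLDN7, which lies along the whole lateral membrane as well as in the junction, varied least of the 9. The signal was 246, 277, 258, 256, 258 and 243. These span 1.14-fold, a log2 range of 0.19 beside a spread of 0.33 or 0.26 between probe sets at such signals, so no time stood apart. CLDN18, best known from stomach and lung, was above the floor on 3 arrays only, with signals of 25.8, 8.21, 7.77, 16.3, 35.2 and 12.9. At 1, 3 and 48 h it was at least 1.59-fold lower than at 0 h, and the other 3 CLDN18 probe sets were under the floor on each array. The log2 ratios of -0.67 to 0.45 stand beside a spread of 0.64 at such signals.

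The stretches before the start sites of CLDN1, CLDN3 and CLDN4 are shown because these barrier-forming members had the highest ratios to 0 h in the first 3 h. They run from 250 bases before to 50 after the start site, 5′ to 3′, as given by RefSeq for GRCh38.p14, and capitals mark matches to the motifs searched. RefSeq windows were used for 8 of the 9 genes, and none was used for CLDN23.
CLDN1 chr3:190322397-190322696, minus strand: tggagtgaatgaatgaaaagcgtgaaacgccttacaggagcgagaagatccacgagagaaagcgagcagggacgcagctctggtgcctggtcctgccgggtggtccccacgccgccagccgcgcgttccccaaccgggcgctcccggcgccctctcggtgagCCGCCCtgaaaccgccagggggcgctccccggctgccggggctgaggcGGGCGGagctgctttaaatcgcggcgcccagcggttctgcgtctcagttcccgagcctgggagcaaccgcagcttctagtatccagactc
CLDN3 chr7:73770221-73770520, minus strand: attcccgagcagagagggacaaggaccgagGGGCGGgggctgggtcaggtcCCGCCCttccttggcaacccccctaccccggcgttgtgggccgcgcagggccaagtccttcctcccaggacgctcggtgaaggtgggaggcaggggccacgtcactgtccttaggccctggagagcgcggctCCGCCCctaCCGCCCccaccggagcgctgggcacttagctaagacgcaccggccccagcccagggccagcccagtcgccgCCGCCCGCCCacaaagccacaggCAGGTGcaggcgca
CLDN4 chr7:73830746-73831045, plus strand: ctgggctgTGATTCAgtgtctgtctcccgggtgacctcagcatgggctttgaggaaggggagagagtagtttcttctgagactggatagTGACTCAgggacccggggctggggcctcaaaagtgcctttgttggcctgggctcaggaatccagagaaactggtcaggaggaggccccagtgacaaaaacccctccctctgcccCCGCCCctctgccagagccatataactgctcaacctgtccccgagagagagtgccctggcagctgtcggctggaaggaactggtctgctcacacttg
The 6 motifs searched on both strands were the GC box, spelled GGGCGG, the AP-1 motif TGANTCA, the NF-kB motif, the CDX motif TTTAT, the motif of GATA factors, which reads AGATAA, and the Snail E-box CAGGTG. They were found in 45.0%, 7.71%, 1.91%, 34.9%, 10.3% and 20.6% of 35116 windows of that length. GGGCGG or its complement occurs in all 3 windows shown, 6 times in that of CLDN3, where 2 matches overlap. TGANTCA occurs in that of CLDN4 alone of the 3, at 242 and 161 bases before the start, and CAGGTG in that of CLDN3. None of the 3 holds the NF-kB motif, TTTAT or AGATAA, which says only that these letters are not in the windows.

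The pore-forming claudins were both above 0 h from 3 h on, and neither by 2-fold. CLDN15, a cation and water channel of the small intestine, read 81.9, 92.7, 93.4, 102, 137 and 88.4. The array at 24 h was thus the highest, 1.67-fold above 0 h, a log2 ratio of 0.74 that 8.32% of the 5910 genes of like signal reached or passed. The 48 h array was back to 1.08-fold. The dimmer CLDN15 probe set read 13.3, 20.2, 20.6, 17.3, 8.72 and 30.6. It was under the floor at 0 and 24 h and highest at 48 h, so it did not share the course of the brighter one.

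CLDN2, the cation and water pore that is known to be raised in inflamed intestine, lay near the floor throughout. Its only probe set read 17.7, 15.9, 26.6, 22.4, 25.8 and 20.8. The highest ratio was 1.51-fold at 3 h, a log2 ratio of 0.59 beside a spread of 0.64 between probe sets at such signals. A difference of this size cannot be told from noise on these arrays.

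The windows of both pore-forming genes are shown for comparison with those above, that of CLDN2 at the first of its 2 RefSeq start sites, with capitals as before.
CLDN2 chrX:106899914-106900213, plus strand: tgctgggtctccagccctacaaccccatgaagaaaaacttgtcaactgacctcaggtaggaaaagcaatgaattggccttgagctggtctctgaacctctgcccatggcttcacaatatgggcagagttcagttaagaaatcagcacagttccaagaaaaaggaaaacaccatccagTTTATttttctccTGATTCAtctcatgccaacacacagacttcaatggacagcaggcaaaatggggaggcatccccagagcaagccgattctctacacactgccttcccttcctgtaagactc
CLDN15 chr7:101237753-101238052, minus strand: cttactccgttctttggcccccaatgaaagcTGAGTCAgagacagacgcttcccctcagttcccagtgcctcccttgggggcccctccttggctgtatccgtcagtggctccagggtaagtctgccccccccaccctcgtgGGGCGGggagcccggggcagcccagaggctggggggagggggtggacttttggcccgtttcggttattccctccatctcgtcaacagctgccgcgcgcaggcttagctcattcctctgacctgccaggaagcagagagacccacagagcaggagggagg
Each holds TGANTCA, that of CLDN2 at 60 and that of CLDN15 at 219 bases before the start. The window at the second CLDN2 start site, which is not shown, holds none of the 6 motifs and is 51.3% G or C. TTTAT occurs in the CLDN2 window shown at 73 bases before the start, and GGGCGG in the CLDN15 window. The CLDN2 window shown is 47.3% G or C and that of CLDN15 64%, whereas those of CLDN1, CLDN3 and CLDN4 are 67%, 72% and 59%, beside a median of 58.7% over all windows.

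Of the unclassed members, CLDN23, which is known from the surface cells of the colon, read 166, 286, 291, 241, 137 and 111 in its brightest probe set. The arrays of the first 6 h of coculture were above 0 h and those of 24 and 48 h below it. It was 1.75-fold higher at 3 h and 1.49-fold lower at 48 h than at 0 h. From highest to lowest it spanned 2.62-fold, close to the 2.61-fold of CLDN3, with the largest single step between 6 and 24 h, a log2 ratio of -0.81. The second CLDN23 probe set read 40.5, 33.8, 45.3, 36.2, 35.3 and 30.1, and its log2 ratio to 0 h was -0.26 at 1 h. It did not show the higher signal at 1 h, while its lowest value was also at 48 h, and the third probe set was under the floor throughout.

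CLDN12, an atypical claudin tied to calcium passage, read 324, 409, 325, 305, 427 and 432. The arrays at 1, 24 and 48 h lay above those at 0, 3 and 6 h. The highest ratio was 1.33-fold at 48 h, a log2 ratio of 0.42 beside a spread of 0.26. A probe set annotated to both CLDN12 and PTTG1IP2 was left out, and its signals of 2.68 to 7.62 were all under the floor.

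**Figure D2:**
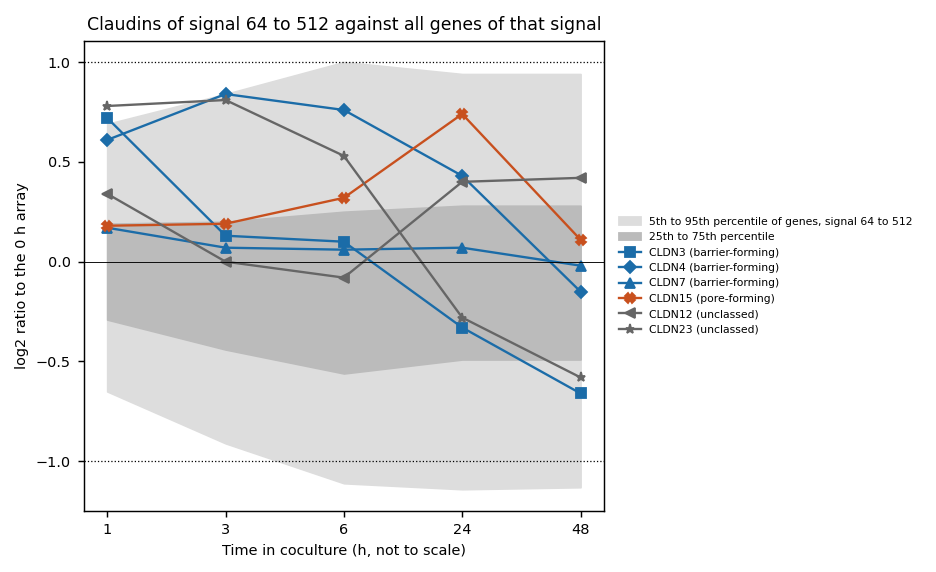
Log2 ratio to 0 h (vertical axis) by time of coculture (h) for the 6 claudins with a mean signal of 64 to 512, over the spread of the 5910 genes of that signal, with 2-fold dotted. CLDN1, CLDN2 and CLDN18 lie outside that range of signal and are not drawn. At 1 h all 6 lie above 0, and CLDN3 and CLDN23 lie above the 95th percentile, whereas at 48 h the values run from -0.66 to 0.42.

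Genes of like signal were taken from a range chosen after the values were seen. All 6 claudins in that range were above 0 h at 1 h, and 2 were at 48 h. Outside it, CLDN1 had a log2 ratio of 0.29 at 1 h. CLDN2 and CLDN18 had -0.12 and -0.67, both bounds set by the floor. Over all 9 members the median was 0.29, 0.19, 0.32, 0.40 and -0.02, beside -0.04 to 0.00 over all genes above the floor on any array. Of the 6 members with a mean signal of 64 to 512, 6, 6, 5, 4 and 2 had a log2 ratio above 0 at the 5 coculture times, where 43.6%, 39.2%, 38.9%, 42.7% and 41.4% of the 5910 genes did. The CLDN12 ratio at 3 h was 0.00 to 2 decimals. The median of the 6 was 0.47, 0.16, 0.21, 0.23 and -0.08, beside -0.06, -0.13, -0.17, -0.10 and -0.12 over all genes of that signal. These ratios share the single 0 h array. CLDN23, CLDN3 and CLDN4 were passed or equalled at 1 h by 3.42%, 4.53% and 6.21% of genes of like signal. For CLDN12, CLDN15 and CLDN7 these shares were 15.7%, 25.7% and 26.4%. All 6 shares are for the brightest probe sets, and the second CLDN23 probe set had a log2 ratio of -0.26 at 1 h.

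The barrier-forming and pore-forming classes were compared by their median log2 ratio to 0 h. The barrier-forming median was 0.29, 0.13, 0.10, 0.24 and -0.15, and the pore-forming median 0.03, 0.39, 0.33, 0.64 and 0.17. The difference, barrier-forming minus pore-forming, was 0.26, -0.26, -0.23, -0.40 and -0.32. Each was smaller in size than 0.41, the spread between probe sets at signals of 64 to 128. That spread is for a single ratio and is not the error of a difference between class medians. Under other settings some differences were larger in size than 0.41, with -0.72 at 24 h. At 24 h, by the brightest probe sets, CLDN2 and CLDN15 had log2 ratios of 0.55 and 0.74 and lay above all 5 barrier-forming members, which ran from -0.33 to 0.45. At 48 h the ranges did not overlap either, with -0.67 to 0.07 for the barrier-forming and 0.11 to 0.23 for the pore-forming members. There CLDN1 at 0.07 and CLDN15 at 0.11 lay closer together than the smallest spread of a single ratio, 0.16, so this order cannot be told from noise. At 1, 3 and 6 h they overlapped. With the median over the probe sets of a gene, the separation was lost at both times. CLDN1 was then at 0.81 at 24 h, above CLDN2 at 0.55 and CLDN15 at 0.37, and at 0.71 at 48 h, above 0.23 and 0.51. The pore-forming side holds 2 genes, 1 of them near the floor. With members above the floor on all arrays alone, an alternative chosen after the data were seen, CLDN15 stands by itself against 4 barrier-forming genes, and the difference is 0.27, 0.14, -0.05, -0.59 and -0.19, so its sign at 3 h turns.

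**Figure D3:**
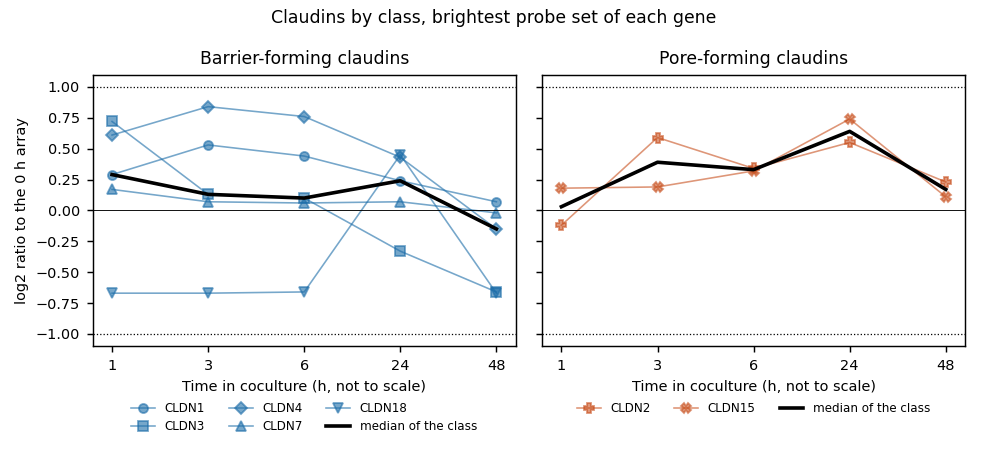
Log2 ratio to 0 h (vertical axis) by time of coculture (h) for the brightest probe set of 5 barrier-forming and 2 pore-forming claudins, with the class median in black and 2-fold dotted. No plotted value reaches 2-fold. By these probe sets, though not with the median over probe sets, both pore-forming genes lie above all barrier-forming ones at 24 and 48 h. At 48 h the nearest are CLDN15 at 0.11 and CLDN1 at 0.07. CLDN18 at 1, 3 and 48 h and CLDN2 at 1 h are bounds set by the floor.

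No claudin gene was called at 2-fold, so genes with a like course were sought for 3 members chosen after their values were seen. Over the 5 coculture times and 10436 genes above the floor on all arrays, the log2 ratios closest to those of CLDN1 were those of LACC1, NOP14 and FAM83H, with root mean square differences of 0.049, 0.068 and 0.073. Closest to CLDN4 were AHCTF1, TP53INP2 and TM4SF1, with 0.116, 0.12 and 0.122. SUGCT, CDKN1A and RPGR were closest to CLDN23, with 0.101, 0.128 and 0.154. All of these ratios share the 0 h array.

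Other claudin genes added 1 difference. Of 15 further claudins, 11 had a probe set of their own, 10 of these were above the floor on at most 2 arrays, and CLDN19 was above it on all 6. CLDN19, known as a partner of CLDN16 in the kidney, read 407, 432, 327, 302, 191 and 110. It fell 2.13-fold by 24 h and 3.70-fold by 48 h, and all 3 of its probe sets were lower at 48 h, by log2 ratios between -1.89 and -0.31. Over all genes, 6.12% were at least 2-fold lower at 24 h and 6.11% at 48 h.

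Partners of claudins in the strand and in the plaque beneath it had 0 of 13 measured members past 2-fold in either direction at any time. Over all genes 1.90%, 3.10%, 4.21%, 3.92% and 3.82% were at least 2-fold higher and 1.46%, 3.52%, 6.44%, 6.12% and 6.11% lower. OCLN, which encodes occludin, read 2878, 3167, 3226, 2760, 2528 and 3040, which is within 1.14-fold of 0 h at each time. TJP1, the scaffold ZO-1 that binds claudin tails, read 1457, 1682, 2452, 2750, 2363 and 2357 and was 1.89-fold above 0 h at 6 h. The median log2 ratio of the list was 0.13, 0.01, 0.00, 0.00 and 0.00. At 6, 24 and 48 h the middle value was that of a gene under the floor on both arrays, whose ratio the floor sets to 0. At 48 h the list ran from -0.82 for MARVELD3 to 0.80 for MARVELD2. OCLN and TJP1 were picked out after their values were seen.

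Proteins that bind claudins or govern their turnover had 1, 3, 3, 3 and 2 of 15 measured members higher, beside 1.90%, 3.10%, 4.21%, 3.92% and 3.82% of all genes, and 0 lower. The list was chosen with earlier results of these data known, so these shares are no test of it. EPHA2, a receptor kinase that phosphorylates CLDN4, rose to 8.95-fold at 6 h, with signals of 50.5, 378, 347, 452, 224 and 122. CAV1, a coat protein of caveolae, rose late, with signals of 101, 133, 144, 207, 413 and 455, which is 4.50-fold at 48 h, and its 2 probe sets had log2 ratios of 1.20 and 2.17 there. MARCHF3, a ubiquitin ligase, was under the floor at 0 h and at least 3.16-fold higher at 6 h, with a signal of 51.3. ST14, the membrane protease matriptase, was 2.18-fold higher at 3 h.

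Of 15 measured transcription factors tied to claudin genes, 2, 2, 3, 3 and 4 were higher and 0, 1, 1, 0 and 0 lower. Of all genes 1.90% to 4.21% were higher and 1.46% to 6.44% lower. This list too was chosen with earlier results of these data known, so the shares are no test of it. CDX2, the intestinal factor that is known to act on the CLDN2 promoter, read 89.2, 103, 25.4, 36.9, 53.5 and 75. It fell 3.51-fold at 3 h, and its 2 probe sets had log2 ratios of -1.81 and -1.06 at that time. CLDN2, which lay near the floor, read 17.7, 15.9, 26.6, 22.4, 25.8 and 20.8. GRHL2, which is known to act on Cldn4 in mice, read 163, 399, 413, 301, 522 and 598. It was past 2-fold at 1, 3, 24 and 48 h, most at 48 h with 3.67-fold. CLDN4 read 92.8, 141, 166, 157, 125 and 83.9. Whether CDX2 or GRHL2 acts on these claudin genes in these cells was not tested. ELF3, an epithelial ETS factor, was highest at 1 h with 4.92-fold, and KLF4, a factor of differentiated epithelium, at 6 h with 3.76-fold. ZEB1, a repressor of epithelial genes, reached 2.38-fold at 24 h, where its 3 probe sets above the floor ranged from 0.14 to 1.25 in log2 ratio.

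Kinases and contractile proteins that act on the junction had 1, 1, 1, 2 and 2 of 13 measured members higher and 0, 0, 0, 1 and 0 lower. Of all genes 1.90% to 4.21% were higher and 1.46% to 6.44% lower, and in a list of 13 a count of 1 or 2 cannot be told from that. PRKCD, a protein kinase C isoform, read 59.6, 197, 345, 320, 133 and 120, most at 3 h with 5.80-fold. MYL12A, a myosin light chain, was 4.07-fold higher at 48 h, but its 4 probe sets ranged from -0.15 to 2.03 in log2 ratio. MYLK, the kinase that tightens the actomyosin ring, did not pass 2-fold at any time, with a highest ratio of 1.58-fold at 48 h.

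**Figure D4:**
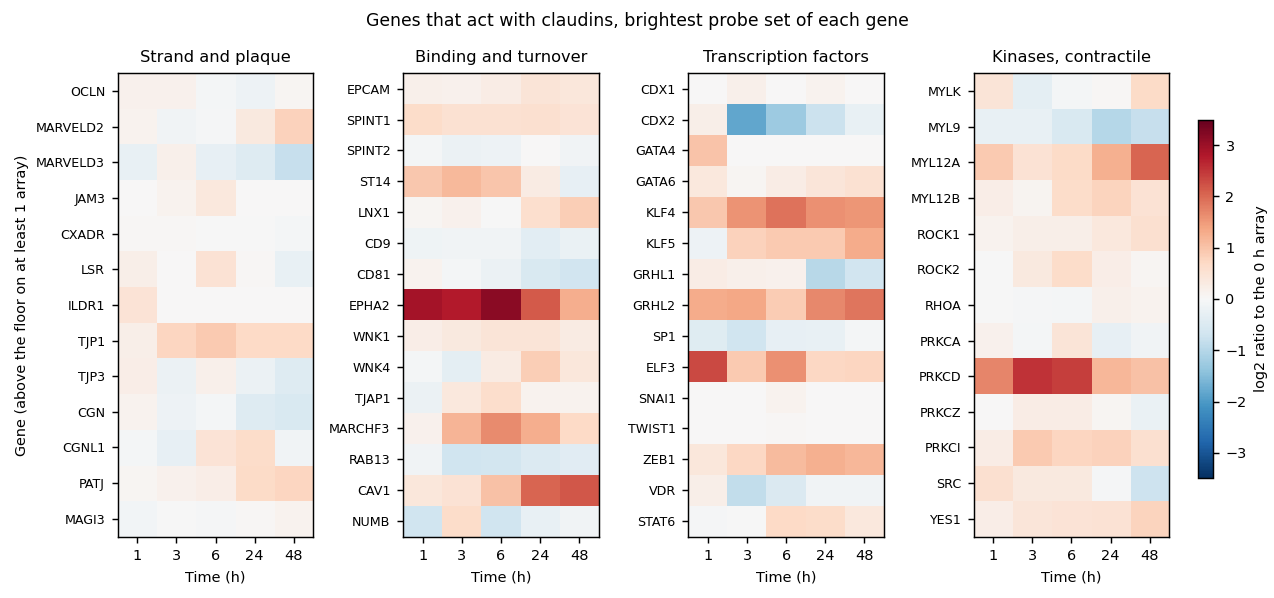
Log2 ratio to 0 h (colour) by time of coculture (h, horizontal) for measured genes of 4 lists of claudin partners and regulators (rows), 1 array a time. EPHA2 at 3.16 and PRKCD at 2.54 are the highest values of their panels, and no gene of the strand and plaque panel reaches 2-fold.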

How the data were processed

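Per the submitters' processing notes, the deposited values are MAS5 signal intensities, 1 per probe set and array, on a linear scale; no source used here gives the version, the scaling target or detection calls. No value column was left unused. The annotation table gave 1 symbol to 41091 of 54675 probe sets. The floor was 16.2, the 50th percentile over the whole table; lower signals were raised to it, log2 was taken, and each gene was represented by its probe set with the highest mean. Ratios were taken to the single 0 h array. A gene was called higher or lower at 2-fold or more with the brighter array above the floor; where the dimmer is at the floor the fold is a bound. With 1 array per time no p-value can be had, and precision is limited by the number of arrays. Genes of lists were named when past 2-fold at 2 or more times, at most 6 a list. OCLN, TJP1, ST14, MYLK, LYZ, GPA33, LGALS4, APOA1 and SI were chosen after their values were seen. So were the 5 macrophage markers never above the floor, the 5 above it on each array, and the sum without AIF1. The members and lists were chosen with earlier results of these data known. Motifs were searched in RefSeq windows of GRCh38.p14. Python 3.11.15, numpy 2.4.6 and pandas 2.3.3 were used.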

Additional observations from a re-analysis of the deposited data

How the results depend on the processing

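With 0 claudin genes past 2-fold at each time as reported, the count was 1 at 1, 3 and 48 h with the floor at the 30th percentile, through CLDN18, whose signals lie under the floor used. It was 3 at 24 h and 2 at 48 h with the 1 h array as the baseline, where CLDN3 was lower by log2 ratios of -1.05 and -1.38 and CLDN23 by -1.06 and -1.36, with CLDN18 higher at 24 h (1.12). Counted by probe sets it was 1 at 3, 24 and 48 h, the dimmer CLDN1 probe set. With 1.5-fold in place of 2-fold it was 4, 4, 2, 1 and 2. Quantile normalization, a common median, the floor at the 65th percentile, a pseudocount, the median over probe sets, and leaving out probe sets ending in _x_at or _s_at, which removes CLDN3, left it at 0 at each time. Under the alternatives the class difference ran from 0.11 to 0.42 at 1 h, -0.36 to 0.14 at 3 h, -0.30 to -0.05 at 6 h, -0.72 to -0.24 at 24 h and -0.58 to -0.07 at 48 h. Its sign at 3 h was positive with the floor at the 65th percentile (0.04) and with members above the floor on all arrays (0.14). Of 331 values of single claudins under alternatives, 296 stayed within the spread between probe sets and 8 passed 2-fold. CLDN23 at 1 h was -0.26 with the median over its probe sets. No paired analysis was possible because there is 1 array at each time. Signals near the floor limit CLDN2 and CLDN18.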
